A study of Homo sapiens with 12 samples.

Results

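MV4-11 cells treated with both drugs were compared with MV4-11 cells that received the solvent alone. MV4-11 is a human acute myeloid leukemia (AML) line of monocytic character, known for an internal tandem duplication in FLT3, and the labels of all 12 libraries call its genotype wild-type. The 6 libraries of this comparison, of 12 in the series, were chosen by treatment: 3 named Com here (mitoxantrone at 20 nM together with gilteritinib at 20 nM) and 3 DMSO libraries. The other 6 libraries were 3 with gilteritinib alone at 25 nM and 3 labelled Mito-Lipo, with 20 nM. The sample labels name the second drug mitoxantrone, while the study describes a liposomal form of it. All cells were treated for 24 h. Gilteritinib was given at a lower dose in Com than alone, so a difference between those conditions is also one of dose. Each condition carried replicate numbers 1, 2 and 3. Nothing given says that these were separate cultures, so every p-value measures the spread between these libraries, which may be technical.

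Mitoxantrone intercalates into DNA and traps topoisomerase II on its cut, which leaves double-strand breaks. Such breaks activate the p53 protein, a transcription factor that is otherwise kept low by the ubiquitin ligase MDM2, itself a p53 target. Other p53 targets halt the cell cycle (CDKN1A, which encodes p21), restrain growth (BTG2) or promote cell death (BAX, FAS). FLT3 is a receptor tyrosine kinase of blood progenitors, and its internal tandem duplication keeps it signaling without ligand through STAT5, ERK and PI3K-AKT. Gilteritinib blocks that kinase. ATF4, a transcription factor of the amino acid response, drives genes for serine synthesis, amino acid uptake and tRNA charging.

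Values were FPKM (fragments scaled to exon length and to the mapped fragments of the library), and differences are given as log2(FPKM + 1) in Com minus DMSO. That scale understates the change of genes of low level. A gene was tested when its FPKM was at least 1 in at least 3 of the 12 libraries, which 18574 genes met, 10506 of them protein-coding. Depth, recovered from genes with 1 exon, was 33.0 to 36.2 M fragments (1 M is 1e6) in these 6 libraries. In bulk RNA, fewer cells of a kind and less RNA per cell cannot be told apart.

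The libraries with replicate number 1 stood apart. On principal component 1, with 41.9% of the variance, the 4 libraries of number 1 were separated from the other 8. Over the 7585 protein-coding genes with a mean FPKM of at least 5 in Com or DMSO, the median absolute log2 difference between numbers 2 and 3 was 0.06 in Com and 0.04 in DMSO. Between number 1 and either of the others it was 0.17 to 0.20. Com and DMSO were therefore compared both over all libraries and at each number. Of 12 marker genes of MV4-11 cells, 11 reached an FPKM of 1 (the exception was MEF2C), with FLT3 at 138 to 169 in these 6 libraries. Of markers of other cell types, 1 of 8 for T and NK cells, 1 of 7 for B cells, 2 of 11 for erythroid cells and platelets, and 0 of 9 for epithelium and fibroblasts reached an FPKM of 1 in any library. CD3D, CD3E, CD79A, MS4A1 and EPCAM did not. The summed FPKM of the T and NK markers was 9.49 to 13.1 in Com and 8.24 to 9.73 in DMSO, nearly all of it NKG7, which was higher in Com at numbers 1 and 3 only (0.61, -0.03 and 0.23, limma unadjusted p = 0.0449). Their part in the results was not tested.

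Across all genes, 1 gene passed an adjusted p under 0.05 in limma's moderated test, or 0.00538% of those tested. It was MIR4316, the gene of a microRNA hairpin at chr17:77396984-77397054 (GRCh38), on the minus strand. The hairpin lies within an intron of SEPT9, which runs on the plus strand at chr17:77280569-77500596, and overlaps none of its exons. The mature microRNA is shown since it is the product of the called gene, with its seed, bases 2 to 8, in capitals (RefSeq, GRCh38.p14).
hsa-miR-4316: gGUGAGGCuagcuggug

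MIR4316 had an FPKM of 3.60, 2.06 and 2.44 in Com and of 0, 0 and 0.427 in DMSO. The 2 groups did not overlap, with a log2 difference of 1.70 ± 0.19 (SE, limma adjusted p = 0.0399). The gene is 71 nt long, and these values stood for 9, 5 and 6 fragments in Com against 0, 0 and 1 in DMSO. Summed over libraries that was 20 fragments against 1, a ratio of 20.2 per depth with an exact 95% interval from 3.24 to 839, for counting error only. Its FPKM was 0.372 to 0.682 with gilteritinib alone and 0.888 to 1.06 with Mito-Lipo, so Com was the highest of the 4 conditions. Without the Com libraries, too few reached an FPKM of 1 for the gene to be tested. It thus entered the test through the group where it was high, and with no filter its limma adjusted p was 0.105. These libraries were made from amplified cDNA, so the values count fragments over the hairpin and not the mature microRNA. Whether strand was kept is not given, so these fragments cannot be told apart from RNA of the SEPT9 intron. With the replicate number as a block no gene passed (MIR4316 limma adjusted p = 0.0674). Without any one of 5 libraries (each Com library, DMSO number 1 and DMSO number 2) the call was also lost, with limma adjusted p from 0.0792 to 0.35. Over all alternatives that tested it, the limma adjusted p of MIR4316 ran from 0.0161 to 1, the latter when only these 6 libraries were fitted, and its log2 difference from 1.44 to 3.97.

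At an unadjusted p under 0.05, 154 genes were higher in Com, or 0.829% of those tested, and 156 were lower, or 0.84%. With the replicate number as a block these became 378 higher (2.04%) and 430 lower (2.32%). At all 3 numbers, 2001 genes were higher in Com (10.8%) and 2529 were lower (13.6%). By at least 0.25 at every number, 126 genes were higher (0.678%) and 135 were lower (0.727%). Of these 261 genes, 43 were protein-coding and 134 were under 200 nt long. Among the 7585 protein-coding genes at the higher level, 10 were higher by 0.25 at every number (0.132%) and 11 were lower (0.145%).

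Genes that p53 is known to activate stood at the top of the higher genes. Of 41 tested members of a list of p53 targets, 31 were higher in Com at all 3 numbers and 0 were lower, where 10.8% of all genes were higher. The list's median log2 difference was 0.27, against -0.01 over all genes. Members higher by 0.25 at every number were 6: CDKN1A, PLK2, EDA2R, MDM2, TRIM22 and BTG2. At an unadjusted p under 0.05, 6 members were higher and 0 were lower. The block raised that to 19, where it called 2.04% of all genes. No member passed the adjusted p in either fit.

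CDKN1A, at chr6:36676460-36687339 (GRCh38), encodes p21, the inhibitor of the kinases CDK2 and CDK1. Its FPKM was 92.1, 30.1 and 30.7 in Com against 48.4, 19.3 and 19.1 in DMSO at numbers 1 to 3. Com was higher by 0.91, 0.61 and 0.66 (log2), but DMSO number 1 exceeded Com numbers 2 and 3, so the groups overlapped. The fitted log2 difference was 0.73 ± 0.49 (SE), with unadjusted p = 0.168 in limma and 0.029 with the block. Leaving out 1 library moved it between 0.21 (without Com number 1) and 1.16 (without DMSO number 1). MDM2, at chr12:68808176-68850686, read 80.3, 28.6 and 30.6 in Com against 32.3, 20.6 and 21.1 in DMSO. It was higher by 1.29, 0.45 and 0.51, and its groups overlapped in the same way. PLK2, a kinase induced by p53, read 12.5, 8.70 and 9.38 against 7.66, 5.96 and 5.95. All its Com libraries were above all DMSO libraries, with a log2 difference of 0.56 ± 0.21 (SE, limma unadjusted p = 0.0242).

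BTG2, which restrains cell division, read 23.8, 16.0 and 16.3 in Com against 9.02, 13.1 and 13.5 in DMSO. The groups did not overlap, and the log2 difference was 0.61 ± 0.23 (SE, limma unadjusted p = 0.0228), but numbers 2 and 3 gave 0.28 and 0.25 against 1.31 at number 1. EDA2R, a receptor of the TNF receptor family, was higher by 0.99, 0.48 and 0.50, and TRIM22, an antiviral ubiquitin ligase that p53 and interferon induce, by 1.18, 0.38 and 0.45. BAX, which permeabilizes mitochondria in apoptosis, differed less: 84.4, 74.2 and 70.9 in Com against 62.2, 66.3 and 66.9 in DMSO, with all Com libraries above all DMSO libraries (log2 difference 0.23 ± 0.13 SE, limma unadjusted p = 0.12). The non-coding RNAs among the leading higher genes included PURPL, a p53-regulated RNA, by 0.88, 0.47 and 0.45, and MIR34AHG, the host of the p53-induced miR-34a, by 1.07, 0.60 and 0.37.

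The size of the difference in p53 targets varied with the replicate number. The list's median was 0.52 at number 1, 0.13 at number 2 and 0.17 at number 3, and the difference was largest at number 1 for 38 of the 41 genes. Members higher in Com were 39 at number 1, 34 at number 2 and 36 at number 3. The median over all genes was -0.01, -0.00 and -0.01 at these numbers. How many of all genes were higher at a single number, or differed most at number 1, was not counted. With number 1 left out of every condition, the list's median was 0.15 and 33 of 41 genes were higher at both remaining numbers. The share of all genes higher at those 2 numbers was not counted, and agreement at 2 numbers asks less than at 3. Without Com number 1 alone, with DMSO number 1 kept, the median was 0.14.

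Without number 1, 9 genes passed limma's adjusted p under 0.05 over the 8 libraries left (0.0485% of the genes tested), 2 higher and 7 lower, and each condition then had 2 libraries. The higher genes were CDKN1A (log2 difference 0.64 ± 0.03 SE, limma adjusted p = 0.0145) and MDM2 (0.48 ± 0.04 SE, limma adjusted p = 0.0474). With number 1 included their SEs were 0.49 and 0.47. These 9 calls thus rest on the small spread between numbers 2 and 3 (median absolute difference 0.06 in Com and 0.04 in DMSO), which may be technical. Among the lower genes, PHGDH, the first enzyme of serine synthesis, fell by 0.60 and GADD45GIP1, a mitochondrial ribosome protein, by 0.98 (log2, both limma adjusted p = 0.0269). H1FX, a linker histone, fell by 1.12, CLEC11A, a secreted growth factor, by 0.51 and RGS16, a regulator of G protein signaling, by 0.49. RNU1-4, a copy of the U1 snRNA gene whose reads cannot be assigned with certainty among its near-identical copies, fell by 1.21. DDIT4, an inhibitor of mTORC1, fell by 0.85 there, but at number 1 it was higher in Com by 0.99 (4.58 against 1.82 FPKM). H1FX and RNU1-4 were lower at number 1 too, by -0.08 and -0.47, as was RGS16 by -0.05, while CLEC11A was higher by 0.08.

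The 12 leading protein-coding genes in each direction were ranked by their smallest difference over the 3 numbers. Of the 12 higher genes, 6 were on the p53 list, and 5 had all Com libraries above all DMSO libraries (2.57% of all genes did). The ranking used these same 6 libraries, so that excess over all genes is no separate evidence. Just inside the size of 0.25 stood BTG2, with 0.25 at number 3, and just outside it F3, with 0.24 at number 2. The others included CD36, TLR1, IL4I1, F3 and MS4A4E. CD36, a scavenger receptor, read 31.8, 17.2 and 19.5 in Com against 19.5, 13.1 and 13.1 in DMSO (0.53 ± 0.28 SE, limma unadjusted p = 0.0817, and 6.2e-05 with the block, where its adjusted p was 0.385). TLR1, a receptor for bacterial lipopeptides, read 6.83, 4.25 and 4.04 against 2.71, 2.69 and 3.18, without overlap (0.62 ± 0.17 SE, limma unadjusted p = 0.00399). IL4I1, a secreted amino acid oxidase, read 5.41, 4.84 and 4.82 against 2.70, 3.88 and 3.59, again without overlap (limma unadjusted p = 0.114). F3, tissue factor, and MS4A4E, a member of the MS4A family, were higher by 0.28 ± 0.16 and 0.35 ± 0.16 (SE).

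Of 27 tested genes of monocyte and granulocyte differentiation, 13 were higher at all 3 numbers and 0 were lower, where 10.8% of all genes were higher, with a median of 0.20. The median was 0.30 at number 1, 0.07 at number 2 and 0.10 at number 3, and with number 1 left out of every condition it was 0.07. Members past an unadjusted p of 0.05 were 0 in the limma fit without the block and 7 with the block, all 7 higher, where the block called 2.04% of all genes as higher. TLR4 (0.26, 0.37 and 0.32) and the integrin ITGAX (0.65, 0.36 and 0.26) followed CD36 in that list. LYZ, lysozyme, read 1333, 551 and 596 in Com against 686, 506 and 490 in DMSO, and CSF1R, the M-CSF receptor, 17.7, 24.6 and 24.8 against 11.4, 22.4 and 20.9. Both were higher at each number, by 0.12 to 0.96 and by 0.13 to 0.59. Of 23 interferon-stimulated genes, 10 were higher at all 3 numbers and 0 were lower, against the same 10.8%. Their median was 0.13, from 0.25 at number 1, 0.03 at number 2 and 0.05 at number 3, and it was 0.03 with number 1 left out. IFI35 led them after TRIM22, at 6.83, 6.16 and 6.51 against 3.78, 5.50 and 5.0, without overlap (0.39 ± 0.11 SE, limma unadjusted p = 0.00578). MX2, an antiviral GTPase, read 1.95, 1.40 and 1.43 against 1.19, 1.16 and 1.28.

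PHGDH and ALDH1L2, both on a list of the ATF4 response and amino acid supply, led the lower protein-coding genes. Of 36 tested genes of the ATF4 response, 21 were lower in Com at all 3 numbers and 1 was higher (CARS, named after its value was seen), where 13.6% of all genes were lower. The list's median was -0.16, and it differed little over the numbers, at -0.15, -0.16 and -0.14. No member passed an unadjusted p of 0.05 in the limma fit without the block. With the block, 16 members did, all lower, where it called 2.32% of all genes as lower. Without Com number 1 alone, with DMSO number 1 kept, the median was 0.03. The reason for that change of sign was not tested. With number 1 left out of every condition the median was -0.14, with 29 of the 36 genes lower at both remaining numbers. The 13.6% does not apply to 2 numbers, and the share of all genes there was not counted.

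PHGDH, at chr1:119648411-119744226, read 4.62, 18.3 and 19.0 in Com against 12.1, 28.5 and 28.9 in DMSO. Com was lower by -1.22, -0.61 and -0.58, although number 1 lay far under the others in both groups and the groups overlapped (-0.80 ± 0.60 SE, limma unadjusted p = 0.210, and 0.0013 with the block). Leaving out 1 library moved that between -0.20 (without Com number 1) and -1.20 (without DMSO number 1). ALDH1L2, a mitochondrial enzyme of folate metabolism, read 4.4, 9.79 and 9.38 against 8.11, 14.4 and 13.7. It was lower by -0.76, -0.51 and -0.50. SLC6A9, a glycine transporter, was lower by -0.44, -0.52 and -0.34 at a low level of 0.115 to 2.1. ASS1, which makes argininosuccinate on the way to arginine and was not on the list, read 27.6, 37.1 and 38.4 against 40.3, 50.2 and 50.7. Its groups did not overlap, and the log2 difference was -0.45 ± 0.15 (SE, limma unadjusted p = 0.0136, and 6.22e-05 with the block, where its adjusted p was 0.385).

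ATF4 binds, with partners of the C/EBP family, an element that was searched here as TGATGNAA on both strands, from 250 bases before to 50 after the annotated start (RefSeq, GRCh38.p14). It was present in 3.62% of 35116 promoters, which is 1217 of 27305 genes, or 4.46%. Of the 36 ATF4 genes tested, 31 had a promoter in the table and 14 of those held it (45.2%). Among the 21 lower at all 3 numbers, 17 had a promoter and 7 held it (41.2%). The list was made of genes of the ATF4 response, so its excess over all genes is not a result of these data. The lower members held the element no more often than the list as tested. A match is a description of these letters and no evidence of binding. Among the lower members that held it, the 4 with the largest difference at their weakest number are shown with 20 bases on each side, in the direction of the gene and with the element in capitals.
SLC1A5: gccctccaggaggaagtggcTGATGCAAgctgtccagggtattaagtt
AARS1: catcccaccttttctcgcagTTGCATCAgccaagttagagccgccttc
MARS1: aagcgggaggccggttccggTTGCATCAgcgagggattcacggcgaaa
IARS1: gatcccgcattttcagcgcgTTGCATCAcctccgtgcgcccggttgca

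The SLC1A5 window is chr19:46784884-46784931 on the minus strand, with the element 97 bases before the RefSeq start. In the annotation used for the values, SLC1A5 spans chr19:46774883-46788594, so this window lies inside the gene. SLC1A5, a glutamine transporter, read 49.9, 83.5 and 86.5 in Com against 65.7, 108 and 103 in DMSO. The AARS1 window is chr16:70289666-70289713 (minus strand, 187 bases before), the MARS1 window chr12:57488044-57488091 (plus strand, 4 before) and the IARS1 window chr9:92293683-92293730 (minus strand, 13 before). These 3 genes, named AARS, MARS and IARS in the annotation used, encode the tRNA synthetases for alanine, methionine and isoleucine. MARS spans chr12:57475445-57517569, so its window also lies inside the gene. The IARS window lies just inside the outer end of that gene, at 92293756. AARS, MARS and IARS differed by -0.22 ± 0.41, -0.15 ± 0.22 and -0.16 ± 0.20 (SE) and were lower at each number. Without Com number 1 alone these read 0.13, 0.03 and 0.01. All 4 groups of values overlapped, since number 1 was low in both conditions.

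Of the 12 leading lower genes, 2 were on the ATF4 list and 5 had all Com libraries below all DMSO libraries (3.16% of all genes did). Here too the ranking used the same libraries, so the excess is no separate evidence. GADD45GIP1, at chr19:12953119-12957236, read 17.0, 7.41 and 8.47 in Com against 23.4, 16.8 and 16.4 in DMSO. EGR1, an immediate early transcription factor that ERK induces, read 4.30, 23.9 and 23.2 against 10.4, 30.6 and 33.0, and JUND, an AP-1 subunit, 69.0, 78.1 and 88.4 against 85.0, 106 and 133. Both were lower at each number and both overlapped, and without Com number 1 alone EGR1 read 0.09. CDKN2D, an inhibitor of CDK4 and CDK6, was lower by -0.25, -0.45 and -0.37, and DOHH, which makes the hypusine of eIF5A, by -0.25, -0.25 and -0.36. Com and DMSO did not overlap for MACROD1, a mitochondrial enzyme that removes ADP-ribose (-0.41 ± 0.17 SE, limma unadjusted p = 0.0301), nor for NRARP, an inhibitor of Notch signaling (-0.37 ± 0.12 SE, limma unadjusted p = 0.00951). EPS8L1 and DOHH did not overlap either (limma unadjusted p = 0.108 and 0.292), while RAB5IF did, at -0.40, -0.73 and -0.93. Transcripts of the 12 lower genes were rich in G and C, with a median of 60.8% against 47.2% over the 7585 genes and 46.2% for the 12 higher genes. In the fifth of genes richest in G and C, the median difference was 0.05, -0.01 and -0.07 over the numbers. The part of base composition in these values was not tested.

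The non-coding genes named by the same measure are uncertain where near-identical copies exist. PPIAP51, a pseudogene, and AC016746.1 were higher (0.37 ± 0.16 and 0.36 ± 0.10 SE), each without overlap. AL591767.3, RN7SL5P (a pseudogene of the signal recognition particle RNA) and the pseudogene GUSBP9 (the record ENSG00000215630) were lower without overlap (-0.62 ± 0.28, -0.52 ± 0.22 and -0.44 ± 0.10 SE). AL354718.1 was lower at each number with overlap (-0.36 ± 0.31 SE). The other record named GUSBP9, ENSG00000235558, read -0.21, 0.26 and -0.46. None of these passed the adjusted p.

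In the limma fit without the block, no member of the lists of STAT5 output, ERK feedback or the PI3K-AKT pathway passed an unadjusted p of 0.05. With the block 3 ERK feedback genes and 2 PI3K-AKT genes did, all lower, and 0 of STAT5 output. The block called 2.32% of all genes as lower and 2.04% as higher. FLT3 read 169, 157 and 158 in Com against 138, 165 and 169 in DMSO (0.04 ± 0.11 SE, limma unadjusted p = 0.706), higher at number 1 and lower at numbers 2 and 3. AKT1 read 16.5, 16.5 and 16.3 against 18.5, 19.0 and 18.7, so all Com libraries were below all DMSO libraries (-0.18 ± 0.09 SE, limma unadjusted p = 0.0647, and 0.0339 with the block), while AKT2 differed by 0.01 ± 0.07 (SE). Of 29 genes of the PI3K-AKT pathway, 6 were lower (20.7%) and 1 was higher at all 3 numbers, where 13.6% of all genes were lower and 10.8% higher, with a median of 0.00. Of 20 genes that AKT restrains through FOXO factors, 4 were higher (20%) and 0 were lower, their median was 0.00, and 3 were higher at an unadjusted p under 0.05 with the block. TXNIP, which limits glucose uptake, read 150, 88.5 and 92.2 against 89.0, 75.4 and 72.8. SESN1 and SESN3, inhibitors of mTORC1, were higher by 0.08 to 1.04 and by 0.04 to 0.41, and SESN1 is also on the p53 list.

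Of 16 genes of STAT5 output, 1 was higher and 2 were lower at all 3 numbers (median -0.01). The 12.5% that were lower lay near the 13.6% of all genes. PIM1, a kinase that STAT5 induces, read 9.19, 56.8 and 56.4 in Com against 18.5, 58.9 and 60.0 in DMSO. MCL1, which blocks apoptosis, differed by 0.09 ± 0.10 (SE), and ID1 read 3.48, 4.11 and 4.94 against 3.53, 7.07 and 6.67. The 15 genes of ERK feedback had a median of -0.04, with 4 lower and 1 higher. The 20 immediate early and AP-1 genes had 5 lower and 1 higher, the latter BTG2, with medians of 0.05, -0.13 and -0.20 over the numbers. BTG2 was the 1 member of these 3 lists at an unadjusted p under 0.05 in the limma fit without the block.

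Over all genes, 13.6% were lower and 10.8% higher at all 3 numbers, and the cell cycle lists are read against these shares. Of 25 genes of G1/S cyclins, CDKs and E2F factors, 4 were higher and 3 were lower, with medians of -0.09, -0.01 and 0.08. The lists that follow had lower medians at number 1 than at the others. Of 48 genes of DNA replication, 15 were lower and 1 was higher at all 3 numbers, and the median was -0.15, -0.03 and -0.00. The 49 genes of G2 and mitosis had 10 lower and 0 higher, with medians of -0.27, 0.03 and -0.01. Replication-dependent histones, of which 54 were tested and whose near-identical copies make each value uncertain, had 14 lower and 2 higher, with medians of -0.28, 0.07 and -0.08. DNA damage signaling and repair had 14 of 42 lower and 0 higher, with medians of -0.12, -0.03 and -0.01. In these 4 lists 0 members passed an unadjusted p of 0.05 in the limma fit without the block. With the block 1 in each list was lower, which is near the 2.32% of all genes that the block called as lower.

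CDK2, the kinase of S phase entry, read 16.0, 21.1 and 21.8 in Com against 17.3, 22.5 and 22.6 in DMSO. It was lower at each number by -0.11, -0.09 and -0.05 (limma unadjusted p = 0.566). CCNA2, its cyclin A2 partner, read 57.2, 67.7 and 72.5 against 74.3, 67.7 and 68.0, lower at number 1, equal at number 2 to 3 digits and higher at number 3. CCNA1, the cyclin A of germ cells and leukemias, was higher by 0.41, 0.31 and 0.20. CDC45, a helicase subunit, was lower by -0.18, -0.06 and -0.08, and WEE1, which holds CDK1 back before mitosis, by -0.23, -0.16 and -0.08. MRE11, of the complex that binds DNA breaks, was lower by -0.14, -0.11 and -0.11, and the histone gene HIST1H4F by -0.38, -0.16 and -0.37.

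Com was also set against each drug alone for the named genes. These comparisons share the Com libraries with each other and with the comparison against DMSO. No gene passed limma's adjusted p under 0.05 in either, and at an unadjusted p under 0.05 there were 303 genes against gilteritinib alone and 1027 against Mito-Lipo. Over all 18574 genes tested, 10624 were above gilteritinib alone and 7518 above Mito-Lipo. The 12 leading higher genes had been ranked by Com minus DMSO in these same Com libraries, which favors high Com values. All 12 were above gilteritinib alone, and 9 were above Mito-Lipo. The exceptions were CDKN1A (-0.47 ± 0.49), BTG2 (-0.93 ± 0.23) and IL4I1 (-0.96 ± 0.27, SE). With Mito-Lipo, BTG2 read 25.2, 42.9 and 43.2 and CDKN1A 113, 45.4 and 45.1. Com thus lay between DMSO and Mito-Lipo at all 3 numbers for both genes.

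The 12 leading lower genes had been ranked in these same Com libraries too, which favors low Com values. Of these 12, 5 were above gilteritinib alone and 5 were above Mito-Lipo. Of all 18574 genes, 10624 and 7518 were, so the count against Mito-Lipo is near the share of all genes. PHGDH was lowest in Com, with 10.4, 20.8 and 20.6 under gilteritinib alone and 6.74, 24.7 and 26.1 under Mito-Lipo. JUND was higher in Com than under gilteritinib alone, where it read 68.5, 36.5 and 43.6 (0.70 ± 0.28 SE, limma unadjusted p = 0.0307, adjusted p = 1). GADD45GIP1 read 18.5, 6.48 and 6.53 under gilteritinib alone and 18.5, 6.52 and 6.27 under Mito-Lipo, close to Com.

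The p53 list's median was 0.22 in Com minus gilteritinib alone and 0.06 in Com minus Mito-Lipo, beside 0.27 in Com minus DMSO. Of its 41 genes, 39 were above gilteritinib alone and 25 above Mito-Lipo, where 10624 and 7518 of all 18574 genes were. For the ATF4 list those medians were -0.06 and -0.15, beside -0.16. DNA replication genes stood at -0.08 in Com minus gilteritinib alone and at 0.18 in Com minus Mito-Lipo, with 47 of 48 above, where 7518 of all 18574 genes were above Mito-Lipo. G2 and mitosis genes were alike, at -0.19 and 0.15, with 48 of 49 above Mito-Lipo. CCNA2 was higher in Com than in Mito-Lipo (53.1, 52.1 and 55.7) by 0.28 ± 0.11 (SE, limma unadjusted p = 0.0269, adjusted p = 0.891).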

How the data were processed

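The authors deposited 1 table of FPKM values for 43876 genes in 12 libraries, made from cDNA amplified by the Geo-seq method and cut by a Tn5 kit. The submitters' processing notes name Bowtie 0.12.9, Cufflinks 2.1.1, HTSeq and DESeq2 without their roles, and the mouse build mm10, while the gene identifiers are human Ensembl IDs. Whether strand was kept is not given in the sources used here, so overlapping genes cannot be told apart. No count model was run. Names and positions came from GENCODE release 29 (GRCh38), which holds 40169 of the genes.

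Differences were fitted to log2(FPKM + 1) by limma 3.58.1 (R 4.3.3) with trend, from all 12 libraries at 1 mean a condition, on genes that reached FPKM 1 in 3 or more libraries. P-values are two-sided, adjusted by Benjamini-Hochberg over all genes tested, and the script was tested on simulated data. All members and lists were chosen with earlier results of these data known. Of 1112 list entries in 37 lists, 1101 matched and 904 were tested. Named genes were those past an adjusted p of 0.05 in the main or block fit, 12 protein-coding and 4 non-coding genes (at least 200 nt) in each direction by the smallest difference over the 3 numbers at a mean FPKM of at least 5, up to 3 members of a list by that measure, and FLT3, AKT1, AKT2, CDKN1A, CDK2 and CCNA2. CARS, NKG7, genes called without number 1, ATF4 genes shown for their promoters, and LYZ were named after their values were seen. Of the genes so named, 1 is not reported here.

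After removal of the condition means, all 18 pairs of libraries with the same number correlated, with r from 0.165 to 0.657. The numbers were taken as pairs, but libraries with different numbers were not compared in this way. The number that stood apart in every condition can by itself make r positive. These values therefore cannot decide whether the other numbers are matched. The block fit and the counts over all numbers rest on that pairing. The labels do not say what the number marks. Depth was found as the number of fragments that made single-exon FPKM values whole: 98.7 to 98.9% were within 0.05 of a whole number. Alternatives were the pseudocount, filter, scaling, gene types, trend, block, libraries in the fit, each library left out and the size at each number.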

Additional observations from a re-analysis of the deposited data

How the results depend on the processing

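MIR4316 was the 1 gene called with both scalings and no trend. With no filter 1 gene was called too, but not MIR4316 (limma adjusted p = 0.105). The count was 0 with a pseudocount of 0.1, a mean FPKM of at least 5, protein-coding genes only, the replicate block, only the 6 libraries compared, and those 6 with the block, and 9 with replicates 2 and 3 only. Genes at an unadjusted p under 0.05 were, higher and lower, 599 and 626 with no filter (more genes tested), 67 and 62 at a mean FPKM of at least 5, 78 and 69 for protein-coding genes only (fewer genes tested), 378 and 430 with the replicate block, 403 and 441 with the 6 libraries and the block, and 553 and 841 with replicates 2 and 3 only. Genes past 0.25 at each number were 229 and 248 with a pseudocount of 0.1, 35 and 35 at a mean FPKM of at least 5, 20 and 23 for protein-coding genes only, and 484 and 571 with replicates 2 and 3 only. With at least 0.1 at each number they were 530 and 612, and with at least 0.5 they were 14 and 14. At a mean FPKM of at least 5, fewer genes being tested, 7 monocyte genes and 3 interferon-stimulated genes were higher at all 3 numbers. The ATF4 median was -0.13 after quantile normalization and -0.14 with replicates 2 and 3 only.

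Without each library in turn, 0 to 1 gene was called, 94 to 269 genes were higher and 139 to 264 lower at an unadjusted p under 0.05, and 405 to 484 were higher and 389 to 671 lower by 0.25 at the 2 numbers left. The ATF4 median ran from -0.32 to 0.03. Single genes crossed 0 without 1 library: EGR1 (-1.15 to 0.09), CDKN2D (-0.77 to 0.00), FLT3 (-0.05 to 0.10), AKT2 (-0.02 to 0.03), CDK2 (-0.20 to 0.05), CCNA2 (-0.17 to 0.00), SESN1 (-0.04 to 0.71), SESN3 (-0.00 to 0.32), PIM1 (-0.90 to 0.47), CDC45 (-0.22 to 0.04), AARS (-0.52 to 0.13), MARS (-0.34 to 0.03), IARS (-0.28 to 0.01), RGS16 (-0.90 to 0.07) and DDIT4 (-0.93 to 0.12). The p53 targets MDM2 (0.28 to 1.01), EDA2R (0.23 to 0.91) and TRIM22 (0.20 to 0.91) stayed above 0. With replicates 2 and 3 only, FLT3 was at -0.08 and CCNA2 at 0.05. Where no value shows it, the cause was not tested.

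The smallest FPKM values rest on few fragments, as for MIR4316. At the adjusted p, the replicate block changed no call but that of MIR4316. At an unadjusted p under 0.05 it raised the counts given above and in the lists.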

Other observations

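Some gene groups outside the lists that led either direction were as close to DMSO as all genes were. The 66 nuclear genes of the respiratory chain had a median log2 difference of -0.03 and the 76 ribosomal protein genes one of 0.02. The 15 mitochondrially encoded genes had a median of -0.31, but of -1.0 at number 1, 0.27 at number 2 and -0.22 at number 3, so their direction turned between libraries of the same treatment. RPS10 was the ribosomal protein gene with the largest steady difference, at 5.68, 5.83 and 5.97 in Com against 7.36, 7.04 and 7.13 in DMSO (-0.26 ± 0.11 SE, limma unadjusted p = 0.0436), and its processed copies make that value uncertain. Of 20 genes that host snoRNAs, 5 were lower at all 3 numbers (25%, against 13.6% of all genes) and 0 were higher, with medians of -0.32, -0.02 and -0.01 over the numbers. SNHG15 read 12.4, 16.1 and 14.0 in Com against 17.1, 18.8 and 18.2 in DMSO (-0.33 ± 0.11 SE, limma unadjusted p = 0.0139). SNHG6 read 55.0, 79.8 and 71.4 against 96.6, 87.6 and 88.2 (-0.41 ± 0.13 SE, limma unadjusted p = 0.0107), and SNHG5 differed by -0.17 ± 0.08 (SE).

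Genes of cholesterol and fatty acid synthesis had 9 of 33 members lower and 0 higher at all 3 numbers (27.3% lower, against 13.6% of all genes), with a median of -0.07, from -0.21, -0.03 and 0.00 over the numbers. INSIG1, which holds the SREBP factors in the endoplasmic reticulum, was lower by -0.29, -0.35 and -0.20. Heat shock proteins had 3 of 13 lower (23.1%), although the list's median was -0.23 at number 1, 0.06 at number 2 and 0.10 at number 3. These 3 were led by the small chaperone HSPB1 at -0.20, -0.35 and -0.28. Of 8 genes on a list of drug efflux, 1 was higher (12.5%) and 2 were lower (25%) at all 3 numbers, with a median of 0.03. Over all genes 10.8% were higher and 13.6% lower. The higher gene was MVP, the major vault protein. It read 13.8, 10.4 and 9.77 in Com against 7.61, 8.92 and 9.04 in DMSO without overlap (0.36 ± 0.17 SE, limma unadjusted p = 0.0561). The lower genes were the transporters ABCC2 and ABCA2.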
